A study of Mus musculus with 6 samples.

Results

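*B3gnt7*, *Chsy1* and 8 related genes that build proteoglycan chains were followed in mouse neuromesodermal progenitors (NMPs) given a brief pulse of retinoic acid (RA). The 10 genes, of 20631 in the deposited tables, are *B3gnt7* and *B3gnt2*, *Chsy1*, *Chsy3*, *Chpf* and *Chpf2*, *Ext1* and *Ext2*, and *Xylt1* and *Xylt2*. Their rows were taken by gene symbol from the table of each sample, and the values of a gene's transcripts were summed. *B3gnt7* and *Chsy1* were chosen by their higher values after RA than after DMSO, so that those 2 differences are a description and carry no test. The other 8 genes are enzymes of the same or a neighbouring step, and their values bear on whether the rise was confined to *B3gnt7* and *Chsy1*.

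NMPs are caudal cells that supply both spinal cord and presomitic mesoderm, and here they were derived from embryonic stem cells (ESCs) over 3 days, with bFGF and then with bFGF and the WNT agonist CHIR99021. All 6 samples were then kept for 2 h in medium without bFGF, CHIR99021 or retinoid precursors, in the solvent DMSO, in 25 nM RA or in 1 µM RA, 2 samples each. The labels give the strain of the ESCs as 129 R1, whereas the methods name C57BL/6 ESCs grown on feeder fibroblasts, and this was not resolved. The duplicates came from separate dishes and are called technical in the methods, so that SDs and p-values measure the spread between dishes of a single derivation. For each sample the deposited values are an estimated count and an RPKM (a read count per kilobase of transcript, scaled to library size) for each RefSeq transcript.

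The depth was 31753556 to 42029348 estimated counts. RA acted in all 4 treated samples: *Rarb*, a receptor gene that RA induces, had 0.237 ± 0.0322 RPKM (SD, n = 2) in DMSO, 5.28 ± 0.440 at 25 nM and 6.77 ± 0.171 at 1 µM RA, and *Cyp26a1*, which encodes an RA-degrading enzyme, had 52.4, 178 and 278 RPKM. The NMP gene *T* lay between 367 and 380 RPKM in all 6 samples, and *Sox2* was at 5.20 RPKM in DMSO and at 15.4 and 16.3 RPKM with the low and the high dose. *Sox1*, a gene of committed neural cells, was at or below 0.245 RPKM, while *Sox3*, also among the neural markers, had a mean of 5.01 RPKM over the samples. Of the genes fixed as pluripotency markers, *Pou5f1* was at 432 RPKM or more in each sample. The means of the others were 19.55 RPKM for *Nanog*, 5.19 for *Zfp42*, 0.539 for *Klf4* and 0.447 for *Esrrb*. The other NMP markers did not move together. *Nkx1-2* had means of 39.11 RPKM in DMSO and 79.55 and 77.7 RPKM with the low and the high dose. *Fgf8* went the other way, with 58.35, 50.73 and 48.99 RPKM. *Cdx2* had 5.094, 6.039 and 5.185 RPKM, and *Wnt3a* had 7.419, 8.481 and 8.635 RPKM. The NMP label rests on *T* and *Sox2* being present together, and the pluripotency genes were split between high and very low levels. The 7 genes fixed as markers of feeder fibroblasts summed to between 5.26 and 6.27 RPKM. In bulk samples like these, fewer cells of a type and less RNA per cell cannot be told apart.

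Proteoglycans are proteins that carry long sugar chains. Chondroitin sulfate and heparan sulfate chains start from a short linker whose first sugar, xylose, is put on a serine by Xylt1 or Xylt2. Chsy1 and Chsy3, with their partners Chpf and Chpf2, then polymerize chondroitin, and the Ext1 and Ext2 proteins together polymerize heparan sulfate. B3gnt7 adds N-acetylglucosamine to growing keratan sulfate and related chains, and B3gnt2 does so on polylactosamine. The chains bind growth factors such as FGFs and WNTs at the cell surface. RA acts through RAR-RXR receptor dimers that bind pairs of short half-sites in DNA, known as RA response elements (RAREs).

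The sequence just upstream of *B3gnt7* and *Chsy1* is shown because these are the genes with the raised values. The 250 bases before the start in the RefSeq promoter table are given on the plus strand of GRCm38.p6, at chr1:86302971-86303220 for *B3gnt7* and chr7:66109242-66109491 for *Chsy1*. Capitals mark the receptor half-sites searched, which are AGGTCA, its variant AGTTCA, likewise GGGTCA, its variant GGTTCA, together with the palindrome CACGTG (E-box), each on either strand. The *B3gnt7* window ends at the base before the start of its transcript in the deposited tables. The start of *Chsy1* in the promoter table lies upstream of that of its deposited transcript, at 66109515, so that the bases from the end of its window to that position were neither shown nor searched. A non-coding transcript of *B3gnt7* in GENCODE M21 begins farther upstream and covers its window.
B3gnt7: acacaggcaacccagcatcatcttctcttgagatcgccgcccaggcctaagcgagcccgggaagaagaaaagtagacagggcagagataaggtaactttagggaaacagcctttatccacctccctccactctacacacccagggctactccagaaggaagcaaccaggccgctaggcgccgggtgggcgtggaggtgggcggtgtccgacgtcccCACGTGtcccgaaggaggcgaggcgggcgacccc
Chsy1: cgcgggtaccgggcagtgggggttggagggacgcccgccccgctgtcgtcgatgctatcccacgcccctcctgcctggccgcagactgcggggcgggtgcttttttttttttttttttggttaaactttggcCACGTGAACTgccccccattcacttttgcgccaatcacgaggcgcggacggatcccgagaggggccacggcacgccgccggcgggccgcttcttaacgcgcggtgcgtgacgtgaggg
For comparison, the paired half-sites found by the same search before the RA-induced genes *Rarb* (chr14:16575513-16575529, minus strand) and *Cyp26a1* (chr19:37697776-37697792, plus strand) are shown on the strand of the gene, with the half-sites in capitals.
Rarb: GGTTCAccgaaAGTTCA
Cyp26a1: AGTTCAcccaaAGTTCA
Both of these pairs have a 5-base spacer (a DR5 element), and they begin 53 and 32 bases before the start in the promoter table. Direct repeats of half-sites with spacers of 0 to 5 bases were searched in the upstream sequence of the 7 genes of the 10 that had an entry in the RefSeq table, which leaves out *Chsy3*, *Ext1* and *Xylt1*, and none held one in these 250 bases. DR5 elements were in 0.0883% of 32851 upstream sequences of the same length. A single half-site stood upstream of *Chsy1*, where its reverse complement overlaps the CACGTG, and of *Ext2*, and 38.6% of all upstream sequences had one. The CACGTG palindrome stood before *B3gnt7*, *Chsy1* and *Ext2* and in 6.02% of all sequences, and it was searched only after the sequences had been looked at. These matches describe the letters of these windows, and more distant sequence was not analysed here. From published RAR ChIP-seq data, the paper reports a DR2 or DR5 RARE near *B3gnt7* that is conserved at least in human. The paper also reports a rise of *B3gnt7* in RA-treated NMPs by qRT-PCR. In *Raldh2* knockout embryos, which are deficient in RA synthesis, the paper saw no change of *B3gnt7* by in situ hybridization.

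*B3gnt7* (chromosome 1, 86303221 to 86307305 of mm10, plus strand) had 16.5 and 16.4 RPKM in the DMSO samples, 46.0 and 44.5 RPKM at 25 nM RA, and 47.7 and 49.6 RPKM at 1 µM RA. Every RA-treated sample lay far above both DMSO samples, and the duplicates lay close together. The estimated counts behind these levels were 2200 and 1802 in DMSO, 4593 and 5583 for the low dose, and 5374 and 5655 for the high dose. The fitted rise was 2.74-fold at 25 nM RA (95% interval 2.56 to 2.94) and 2.94-fold at 1 µM RA (2.75 to 3.16).

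*Chsy1* (chromosome 7, 66109515 to 66173798, plus strand) started from nearly the same level, 16.0 and 16.1 RPKM in DMSO, and reached 34.1 and 33.1 RPKM at 25 nM RA and 38.3 and 38.4 RPKM at 1 µM RA. Its counts went from 3434 and 2851 in DMSO to 5477 and 6681 with the low dose and 6939 and 7057 with the high dose. The 3 conditions did not overlap, which also held for *B3gnt7*. The fitted rise was 2.09-fold at 25 nM RA (1.95 to 2.23) and 2.38-fold at 1 µM RA (2.22 to 2.54). At 25 nM RA, *B3gnt7* held rank 81 and *Chsy1* rank 156 by log2 fold change among the 15143 genes tested, and at 1 µM RA they held ranks 89 and 137. On the log2 scale *Chsy1*, at 1.06 at 25 nM RA, was just above the fold change of 1 that the study set for activated genes, and the next of the 10 genes below that line was *Chpf* at 0.06.

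Reads on the opposite strand could enter both values, since the strand setting of the counting is not given in the sources used here. In the GENCODE M21 annotation the antisense gene *Gm28626* (chromosome 1, 86303195 to 86304059) shares 12.6% of the exon bases of *B3gnt7*, and *Gm26827* (chromosome 7, 66109515 to 66173121) shares 3.54% of those of *Chsy1*. The share for *B3gnt7* is of 4137 annotated exon bases, whereas its counted transcript has 2595. Neither antisense gene is a row of the deposited tables, but the paper lists both among non-coding RNA genes that 25 nM RA activated. Their part in the rise of *B3gnt7* and *Chsy1* was not tested.

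**Figure D1:**
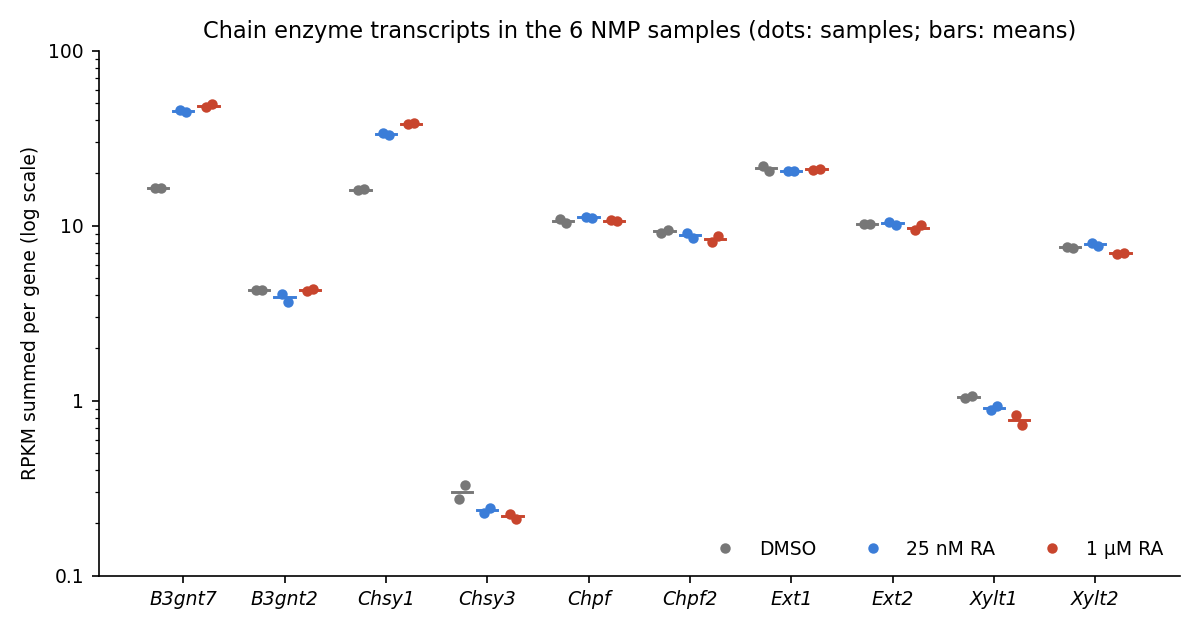
RPKM summed per gene, on a log axis, for the 10 chain enzyme genes; each dot is a sample and each bar the mean of a condition (grey DMSO, blue 25 nM RA, red 1 µM RA). *B3gnt7* and *Chsy1* step up from about the level of 16.4 and 16.1 RPKM in DMSO, while the other 8 genes stay near their DMSO level, with *Chsy3* and *Xylt1* the lowest.

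None of the other 8 genes passed the test at 25 nM RA, where 4.5% of the 15143 genes tested were called higher and 3.55% called lower by edgeR's likelihood ratio test at an adjusted p under 0.1. The count was also 0 with edgeR's quasi-likelihood test, with DESeq2, and at an unadjusted p under 0.05, which 2258 of the 15143 genes had. Their log2 fold changes ran from -0.34 for *Chsy3* to 0.06 for *Chpf*, with a median of -0.07 beside -0.00051 for all genes. At 1 µM RA 0 of the 8 were called higher, beside 8.54% of all genes, and 2 of the 8, *Xylt1* and *Chpf2*, were called lower, beside 11.2% of all genes. Without TMM scaling 3 of the 8 were called lower, with *Xylt2* as the third, and with DESeq2 or single transcripts 0. All 8 fitted changes were below 0 at 1 µM RA, with a median of -0.10. An unadjusted p under 0.05 was reached by 4 of the 8 at this dose, beside 4003 of the 15143 genes. Of all genes called at 1 µM RA 43.4% were higher, and without TMM scaling this share was 33.3%.

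*B3gnt2* (chromosome 11), the closest relative of *B3gnt7* among the 10 genes, had 4.28 and 4.32 RPKM in DMSO, 4.10 and 3.69 RPKM at 25 nM RA and 4.24 and 4.36 RPKM at 1 µM RA. The high-dose samples lay on either side of the DMSO level. Its change at 25 nM RA was -9.45% (95% interval -18.8% to 0.975%), and at 1 µM RA it was -1.28% (-11.3% to 9.88%), so that any rise beyond 9.88% was outside the interval. The gene has 2 transcripts, and the authors' estimation divided its reads between them: the transcript starting farther upstream had 2.81 ± 0.402 RPKM in DMSO, 1.97 ± 0.861 at 25 nM and 3.51 ± 0.0920 at 1 µM RA. The sum of both was steadier than either.

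Of the chondroitin polymerizing enzymes besides *Chsy1*, the second synthase *Chsy3* (chromosome 18) was barely expressed, with 0.275 and 0.329 RPKM in DMSO, 0.228 and 0.245 for the low dose, and 0.226 and 0.211 for the high dose. Its counts were 34 to 55 per sample. The RA samples all lay below the DMSO samples, but with these counts the log2 fold changes of -0.34 (SE 0.22) and -0.46 (SE 0.23) did not pass the test. *Chpf* (chromosome 1), a partner of the synthases, had 10.9 and 10.4 RPKM in DMSO, 11.2 and 11.1 RPKM at 25 nM RA, and 10.8 and 10.6 RPKM at 1 µM RA. The intervals of its change, -3.47% to 12.5% at 25 nM RA and -7.89% to 7.43% at 1 µM RA, hold 0 and leave out a doubling like that of *Chsy1*. *Chpf2* (chromosome 5), the other partner, had 9.13 and 9.46 RPKM in DMSO, 9.12 and 8.52 RPKM at 25 nM RA, and 8.07 and 8.78 RPKM at 1 µM RA. It fell by 0.15 on the log2 scale at 1 µM RA (SE 0.061, adjusted p = 0.0807, edgeR's likelihood ratio test), a call that was lost with DESeq2 (adjusted p = 0.27), with single transcripts (0.353), with the replicate block (0.11), and without DMSO replicate 1 (0.147), DMSO replicate 2 (0.438), 25 nM replicate 2 (0.102) or 1 µM replicate 1 (0.453).

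The heparan sulfate polymerases were not called at either dose. *Ext1* (chromosome 15) had 22.1 and 20.5 RPKM in DMSO, 20.5 and 20.7 RPKM at 25 nM RA, and 20.8 and 21.2 RPKM at 1 µM RA, and every RA sample lay between the DMSO samples. *Ext2* (chromosome 2) had 10.3 and 10.2 RPKM in DMSO, 10.6 and 10.1 RPKM at 25 nM RA, and 9.41 and 10.1 RPKM at 1 µM RA. The intervals of the change were -10.2% to 3.65% and -8.63% to 5.38% for *Ext1* at the low and the high dose, and -7.40% to 8.77% and -12.6% to 2.80% for *Ext2*.

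The xylosyltransferases, which start both kinds of chain, stood at different levels. *Xylt2* (chromosome 11) had 7.54 and 7.51 RPKM in DMSO, 7.97 and 7.70 RPKM at 25 nM RA, and 6.92 and 6.98 RPKM at 1 µM RA. *Xylt1* (chromosome 7) had 1.03 and 1.07 RPKM in DMSO, 0.881 and 0.936 RPKM at 25 nM RA, and 0.833 and 0.726 RPKM at 1 µM RA, from counts of 98 to 163. The levels of *Xylt1* in the 3 conditions did not overlap. It fell by 0.44 on the log2 scale at 1 µM RA (SE 0.14, adjusted p = 0.0187, edgeR's likelihood ratio test), and the call was lost with DESeq2 (adjusted p = 0.262), with single transcripts (0.383), without DMSO replicate 2 (0.14) and without 1 µM replicate 2 (0.22). *Xylt2* did not pass the test at either dose against DMSO, and without TMM scaling it passed at 1 µM RA (log2 fold change -0.14, adjusted p = 0.0963).

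**Figure D2:**
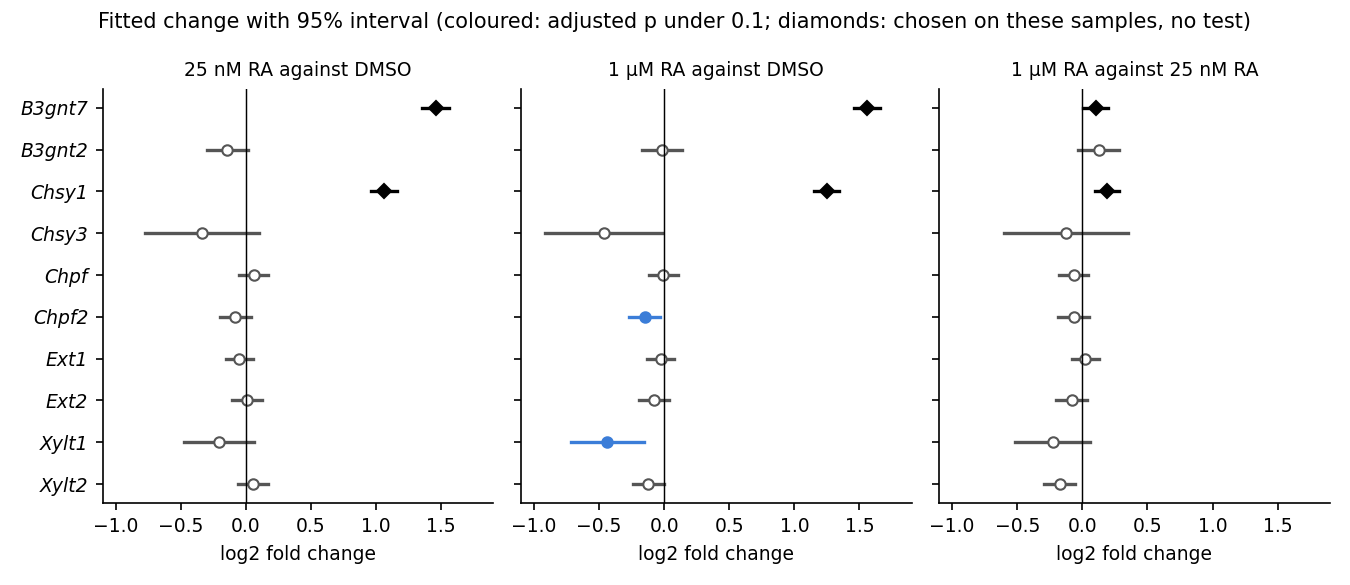
Log2 fold change of each gene with its 95% interval from the edgeR fit, in the 3 comparisons. Filled coloured dots passed an adjusted p under 0.1 (red higher, blue lower), open dots did not, and black diamonds mark *B3gnt7* and *Chsy1*, which were chosen on these samples and carry no test. Against DMSO the diamonds stand at 1.06 to 1.56, and every other gene stands at or below 0.06.

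The comparison between the doses uses the RA samples on which *B3gnt7* and *Chsy1* had been chosen, so that their differences are again a description. *Chsy1* was higher at 1 µM than at 25 nM RA by 0.19 on the log2 scale (SE 0.048) or 14% (95% interval 6.86% to 21.6%), and both high-dose samples lay above both low-dose samples. *B3gnt7* was higher by 0.10 (0.007 to 0.196), so that a difference between the doses of up to 14.6% was within its interval. Its high-dose samples also lay above its low-dose samples. The RPKM values of the doses did not overlap for *B3gnt2*, *Chsy3*, *Chpf*, *Ext1*, *Xylt1* and *Xylt2* either. Such separation was therefore not particular to *Chsy1*. Of the other 8 genes 0 were called by edgeR's likelihood ratio test, its quasi-likelihood test or DESeq2. The likelihood ratio test called 0.792% of all genes higher and 2.62% lower. At an unadjusted p under 0.05 there was 1 of the 8, *Xylt2*, beside 1934 of the 15143 genes tested. *Xylt2* was lower by 11.4% (-18.3% to -3.85%) with the high dose and just missed the threshold (adjusted p = 0.104, edgeR's likelihood ratio test). It passed without TMM scaling (adjusted p = 0.0631) and with the filter of at least 50 counts in 2 samples (adjusted p = 0.0817). The other 7 genes had an adjusted p above 0.5.

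Per length, the order of the 10 levels in DMSO was *Ext1* first, then *B3gnt7*, *Chsy1*, *Chpf*, *Ext2*, *Chpf2*, *Xylt2*, *B3gnt2*, *Xylt1* and *Chsy3*. With either dose of RA *B3gnt7* and *Chsy1* moved to the first places ahead of *Ext1*, and the other 8 kept their order. No neighbours in any of the 3 orders overlapped in their samples, although *Chpf* and *Ext2* were as close as 10.6 and 10.2 RPKM in DMSO, and *B3gnt7* and *Chsy1* as close as 16.4 and 16.1 RPKM. The make-up of each enzyme pair or group followed. *Chsy1* made up 44.2% ± 0.334 (SD, n = 2) of the summed RPKM of the 4 chondroitin polymerizing enzymes in DMSO, 62.4% ± 0.0165 at 25 nM RA and 66.5% ± 0.351 at 1 µM RA. That sum itself went from 36.3 RPKM in DMSO to 53.8 and 57.7 RPKM. *B3gnt7* made up 79.3% of the sum with *B3gnt2* in DMSO and 92.1% and 91.9% with the low and the high dose. *Ext1* kept 67.5%, 66.7% and 68.3% of the sum with *Ext2*, and *Xylt2* kept 87.7%, 89.6% and 89.9% of the sum with *Xylt1*.

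**Figure D3:**
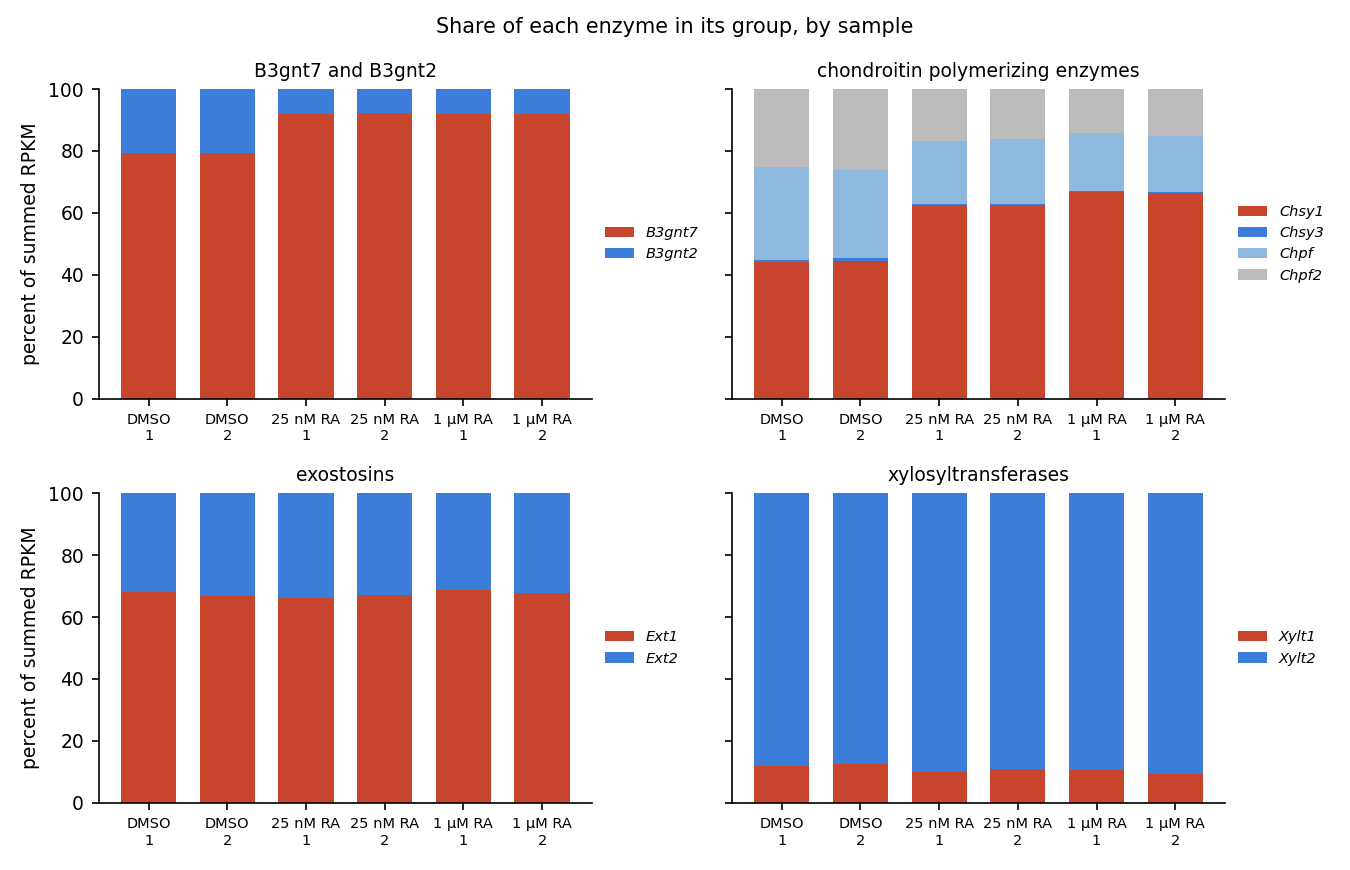
Percent of the summed RPKM of an enzyme group taken by each gene, one stacked bar per sample. The *Chsy1* part grows from 44.2% to 62.4% and 66.5% on average and the *B3gnt7* part from 79.3% to 92.1% and 91.9%, while the exostosin and xylosyltransferase bars differ little between samples.

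The 10 genes were set beside 93 other tested genes of 7 lists that cover the synthesis, sulfation and protein carriers of these chains. At 25 nM RA 5 of the 93 rose and 12 fell (5.38% and 12.9%), and at 1 µM RA 8 rose and 23 fell (8.60% and 24.7%), with median log2 fold changes of -0.06 at both doses. Of all genes tested, 4.5% rose and 3.55% fell at 25 nM RA, and 8.54% rose and 11.2% fell at 1 µM RA, so that the shares of the 93 that rose lay near those of all genes. DESeq2 called 3 of the 93 higher and 7 lower at 25 nM RA, and 4 higher and 19 lower at 1 µM RA, and without TMM scaling 5 were higher at 1 µM RA. No gene among the 93 reached the log2 fold change of *Chsy1* at either dose. The highest was the hyaluronan synthase *Has1* at 25 nM RA, at 1.03 (SE 0.52) from levels of 0.0597 and 0.129 RPKM, which did not pass the test, and at 1 µM RA it was the receptor phosphatase *Ptprz1*, at 0.51. The lists were drawn up with earlier results of these samples known.

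The keratan sulfate and polylactosamine list held 14 tested genes besides *B3gnt7*, and not all of them act mainly on these chains. None of the 14 rose at either dose, also at an unadjusted p under 0.05, by the quasi-likelihood test and by DESeq2. By the likelihood ratio test 4 fell at 25 nM and 5 at 1 µM RA. Of all genes tested 4.5% rose and 3.55% fell at 25 nM RA, and 8.54% rose and 11.2% fell at 1 µM RA. In a list of 14, a count of 0 that rose is close to these shares. *Chst1*, which sulfates galactose in keratan sulfate, went from 1.56 RPKM in DMSO to 1.19 at 25 nM RA and 0.900 at 1 µM RA (log2 fold changes -0.41 and -0.81), and DESeq2 did not call the change at 25 nM RA (adjusted p = 0.56). *B4galt1*, a galactosyltransferase that alternates with the B3gnt enzymes, went from 9.60 to 7.96 and 7.99 RPKM. *B4galt6* and *B3gnt5*, which act mainly on glycolipids, fell at both doses by between 0.18 and 0.40 on the log2 scale. The N-acetylglucosamine sulfotransferase *Chst2* fell at 1 µM RA, by 0.24.

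In the chondroitin and dermatan sulfate list, 1 of the 15 genes besides *Chsy1* rose at 25 nM RA and 0 fell, a 0 that became 1 at an unadjusted p under 0.05 and stayed 0 with the quasi-likelihood test and DESeq2. The gene that rose was *Chst15*, which adds a further sulfate to chondroitin 4-sulfate, from 6.95 and 7.07 RPKM in DMSO to 9.32 and 8.93 RPKM at 25 nM RA and 9.08 and 9.38 RPKM at 1 µM RA. Its log2 fold changes were 0.38 and 0.39 (SE 0.056 at both doses), and the RA samples did not overlap DMSO. The shares of all genes at 25 nM RA were 4.5% higher and 3.55% lower. At 1 µM RA 2 genes rose and 4 fell, beside 8.54% and 11.2% of all genes. *Dse*, the epimerase of dermatan sulfate, was the other that rose (0.14), and besides *Chpf2* the sulfotransferases *Chst7* (-0.26), *Chst12* (-0.29) and *Chst3* (-0.40) fell. DESeq2 called 1 of the 15 higher and 1 lower at this dose, *Chst15* and *Chst7*.

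The heparan sulfate list held changes in both directions. *Ndst1*, which opens sulfation of the chain, had 6.06 and 5.71 RPKM in DMSO, 7.91 and 7.42 RPKM at 25 nM RA, and 7.32 and 7.92 RPKM at 1 µM RA, log2 fold changes of 0.37 and 0.36 (SE 0.059). *Hs6st1*, a 6-O-sulfotransferase, rose by 0.21 and 0.16 at the low and the high dose, and the 2-O-sulfotransferase *Hs2st1* by 0.14 at 1 µM RA. *Hs3st3b1*, a 3-O-sulfotransferase, fell at both doses, by 0.32 and 0.41, and at 1 µM RA *Extl3* (-0.15) and the extracellular sulfatase *Sulf2* (-0.12) fell as well. In all 2 of 19 rose and 1 fell at 25 nM RA, beside 4.5% and 3.55% of all genes. At 1 µM RA 3 rose and 3 fell, beside 8.54% and 11.2% of all genes. Without TMM scaling 1 in place of 3 rose at 1 µM RA, and DESeq2 called 1 higher and 2 lower at this dose and 1 higher and 1 lower at 25 nM RA.

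Genes of the earlier steps were compared as well. The shares of all genes were 4.5% higher and 3.55% lower at 25 nM RA, and 8.54% higher and 11.2% lower at 1 µM RA. In lists of 9 and 14 genes, counts of 0 or 1 are close to these shares. None of the 9 linker enzymes was called at 25 nM RA, at an unadjusted p under 0.05 or by any other test, and at 1 µM RA *Xylt1* was the 1 that fell. At 1 µM RA 3 of the 9 were lower at an unadjusted p under 0.05, 2 were called lower without TMM scaling, and 0 were called by DESeq2. Of the 14 genes of precursor synthesis and transport, 0 were called at 25 nM RA by the 3 tests and 1 had an unadjusted p under 0.05, and at 1 µM RA the sulfate transporter *Slc26a2* rose by 0.23 (SE 0.062), from 7.23 to 8.50 RPKM.

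**Figure D4:**
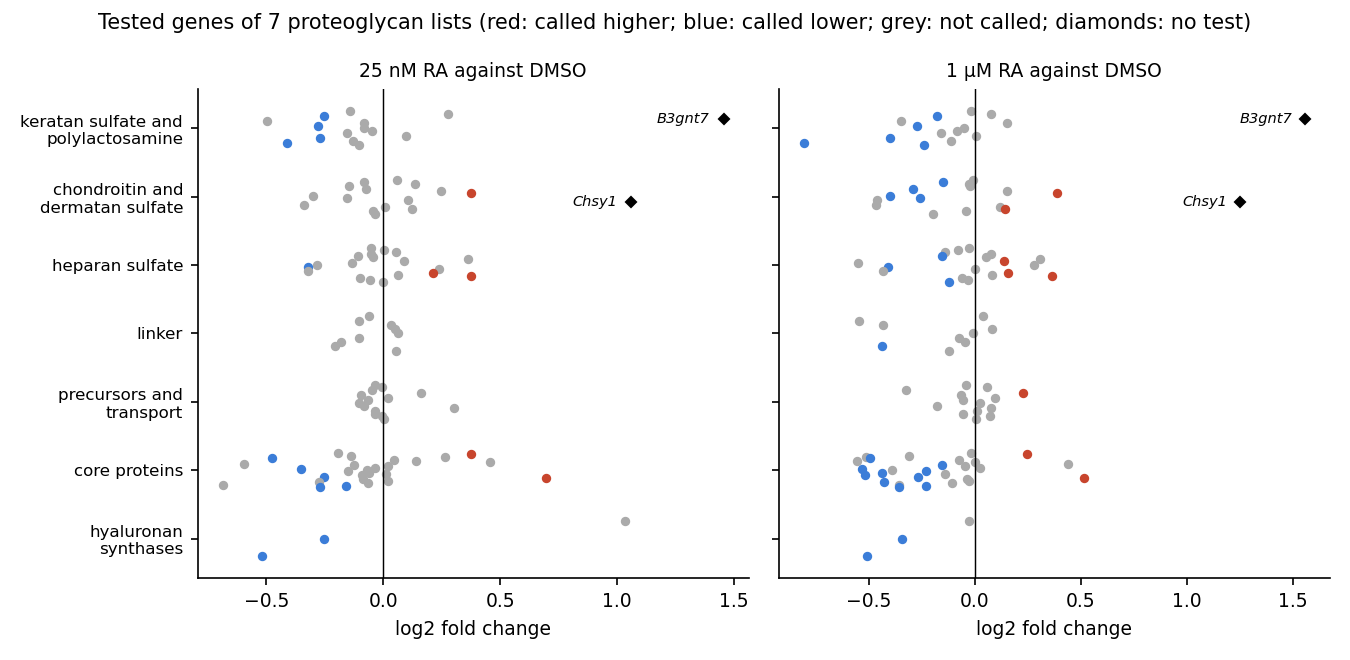
Log2 fold change of the tested genes of 7 lists, one dot per gene, at 25 nM RA (left) and 1 µM RA (right) against DMSO. Red dots were called higher, blue lower and grey not called, and diamonds mark *B3gnt7* and *Chsy1*, which carry no test here; the 5 and 8 red dots all lie below 0.70, and the grey dot near 1.03 at 25 nM is *Has1*.

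Of the 27 core proteins tested, which carry the chains, 2 rose and 5 fell at 25 nM RA, beside 4.5% and 3.55% of all genes. At 1 µM RA 2 rose and 10 fell, beside 8.54% and 11.2% of all genes. DESeq2 called 1 higher and 2 lower at 25 nM RA, and 1 higher and 9 lower at 1 µM RA: it did not call *Ptprz1* at either dose (adjusted p = 0.216 and 0.294), *Gpc4*, *Tgfbr3* or *Cd44* at 25 nM RA (0.239 to 0.374), or *Sdc3* at 1 µM RA (0.281). *Agrn* (agrin), a basement membrane heparan sulfate proteoglycan, rose from 10.7 and 10.9 RPKM in DMSO to 14.7 and 13.5 RPKM at 25 nM RA and 12.5 and 13.2 RPKM at 1 µM RA, and *Ptprz1*, a chondroitin sulfate carrier at 0.215 RPKM in DMSO, rose by 0.69 and 0.51. *Vcan* (versican), a large chondroitin sulfate carrier, fell from 10.3 and 10.4 RPKM to 8.54 and 8.82 RPKM and to 8.04 and 8.30 RPKM. *Gpc4*, *Tgfbr3*, *Cd44* and *Podxl* fell at both doses, by between 0.16 and 0.53 on the log2 scale. *Hspg2* (perlecan), *Omd*, *Sdc3*, *Gpc1* and *Gpc6* were called lower at 1 µM RA and not at 25 nM RA, and for *Hspg2* (-0.38, adjusted p = 7.97e-06, edgeR's likelihood ratio test) and *Omd* (-0.42, adjusted p = 0.00141) the difference between the doses passed as well, while for the other 3 it did not. DESeq2 did not call the difference between the doses for *Omd* (adjusted p = 0.134). The hyaluronan synthases *Has2* and *Has3* fell at both doses, *Has3* from 2.39 to 1.67 and 1.69 RPKM, although DESeq2 did not call *Has2* at 25 nM RA (adjusted p = 0.219). Markers of other cell types changed as well. The 4 endoderm markers, each called lower at both doses, summed to 46.0 and 47.8 RPKM in DMSO and to between 33.9 and 35.5 RPKM in the RA samples. The 4 presomitic mesoderm markers summed to 38.4 and 38.5 RPKM in DMSO, 27.6 and 30.5 RPKM at 25 nM RA, and 22.9 and 24.6 RPKM at 1 µM RA. They did not move together: at both doses 2 of the 4 were called lower and 1 higher. *Meox1* rose from a mean of 0.10 RPKM in DMSO to 0.39 and 0.66 RPKM at the low and the high dose. Of the 6 feeder fibroblast markers tested, 3 were called lower at 1 µM RA, and the untested one, *Lum*, had between 0 and 2 counts in each sample. The part of these cell types in the list changes was not tested.

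The nearest tested genes on each side of *B3gnt7* and *Chsy1* were also compared. *Armc9*, on the same strand before *B3gnt7* with a gap of 24.9 kb, had 5.51 RPKM in DMSO and 5.52 and 5.34 RPKM with 25 nM and 1 µM RA, and it was not called. *Ncl* (nucleolin), on the opposite strand after it, rose by 0.19 and 0.20 on the log2 scale (SE 0.060), calls that DESeq2 did not make. *Vimp*, before *Chsy1*, rose by 0.24 and 0.25 (SE 0.058). *Lrrk1*, on the opposite strand after *Chsy1* with a gap of 84.9 kb, rose from 0.943 and 0.923 RPKM in DMSO to 1.53 and 1.55 RPKM at 25 nM RA and 1.67 and 1.68 RPKM at 1 µM RA, log2 fold changes of 0.72 (SE 0.084) and 0.83 (SE 0.083).

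The genes whose 6 values lay nearest to those of *B3gnt7* were *Nt5e*, *Rara*, *Ngfr*, *Nrip1* and *Pdgfrb*, at Euclidean distances of 0.091 to 0.179. Likeness was measured on log2(CPM + 1) minus the DMSO mean, over the 6 samples, among 11070 genes with a mean of at least 1 RPKM in the RA samples. *Nt5e* stood at 1.42 and 1.43 at 25 nM RA and at 1.58 and 1.51 at 1 µM RA on this scale, and *Rara*, the gene of an RA receptor, at 1.49 in both low-dose samples and at 1.56 and 1.59 in the high-dose samples. The values nearest to *Chsy1* were those of *Ppap2b*, *Sh2d5*, *Erf*, *Dleu7* and *Mecom*, at distances of 0.078 to 0.167. *Ppap2b*, the nearest, stood at 1.05 and 1.03 at 25 nM RA and at 1.27 and 1.26 at 1 µM RA. *Chsy1* was the gene of rank 31 from *B3gnt7*, and *B3gnt7* that of rank 55 from *Chsy1*, at a distance of 0.694. The scale understates the change of genes with few reads, and the 6 points share their libraries and the same DMSO samples.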

How the data were processed

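Ribosomal RNA-depleted total RNA of 6 NMP samples, 2 each with DMSO, 25 nM RA and 1 µM RA, was sequenced with a stranded kit. Per the submitters' processing notes, the tools were FastQC 0.11, TopHat2 2.0.13, Bowtie2 2.2.5.0 and Partek 6.6, with the mm10 genome. The estimated counts per RefSeq transcript were made by the authors by expectation-maximization and deposited without normalization. The deposited RPKM values scale each transcript's reads by its length and by the size of the library. The strand setting of the counting and the RefSeq release are not given in the sources used here.

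The values of 30352 transcripts were summed to 20631 genes, and the summed estimates, made whole, entered edgeR 4.0.16 (R 4.3.3) with TMM factors between 0.989 and 1.008, the filterByExpr filter and 1 coefficient per condition over all 6 samples. The likelihood ratio test named in the study's methods was used, with Benjamini-Hochberg adjustment over 15143 genes and calls at an adjusted p under 0.1. The biological coefficient of variation was 0.0351. Intervals are the log2 fold change ± 1.96 SE. RPKM served for levels. With 2 samples per condition no permutation test can reach a small p, so none was made. Alternatives were the quasi-likelihood test, DESeq2 1.42.0, other scaling and filters, only the 4 samples compared, a replicate block, single transcripts, a threshold of 0.05, and leaving out each sample. The fit was tested on simulated counts with 200 changed genes. Depth was 31753556 to 42029348 estimated counts per sample, and duplicates differed by more than sampling noise (mean chi-square per gene 3.82 to 5.88). Other steps used Python 3.11.15, pandas 2.3.3 and matplotlib 3.10.9.

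The genes and lists were chosen with earlier results of these data known. Genes named are the 10 enzymes, every gene of the lists called against DMSO, the 5 genes most like *B3gnt7* and *Chsy1*, their tested neighbours, and *Rarb* and *Cyp26a1*. Upstream sequences are from the RefSeq table of GRCm38.p6, and gene overlaps from GENCODE M21.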

Additional observations from a re-analysis of the deposited data

Results flagged for a closer look

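*Chsy1* stands here because its fitted change against DMSO was larger with 1 µM RA than with 25 nM RA, by 0.19 on the log2 scale (SE 0.048). Both samples with 1 µM RA (38.3 and 38.4 RPKM) lay above both samples with 25 nM RA (34.1 and 33.1 RPKM). The doses were separated in the same way for *B3gnt7*. *Chsy1* was chosen by its values in these same RA samples, so that the difference is a description and carries no test.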

How the results depend on the processing

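Over the 16 alternatives the log2 fold changes of *B3gnt7* and *Chsy1* against DMSO were 1.44 to 1.47 and 1.05 to 1.08 with 25 nM RA. With 1 µM RA they were 1.54 to 1.58 and 1.23 to 1.27. Both genes were chosen for this rise on the same samples, so that these ranges describe the processing and do not test the rise. None of the other 8 genes was called with 25 nM RA under any of the 16 alternatives. With 1 µM RA the count of those 8 called was 2, and it was 0 with DESeq2 and with single transcripts, 1 with the replicate block and at an adjusted p under 0.05, 3 (with *Xylt2* lower as well) with total counts, and 0 to 2 when each sample was left out in turn. Between the doses 0 of those 8 were called, and 1, *Xylt2*, was called lower with total counts and with at least 50 counts in 2 samples. *B3gnt7* and *Chsy1* were chosen on these samples and are not counted there. Counts of all genes called were 1219 with 25 nM RA (567 with DESeq2, 799 to 1345 with each sample left out), 2983 with 1 µM RA (1594 with DESeq2, 1833 for single transcripts, 1922 to 2838 with each sample left out), and 516 between the doses (336 with the quasi-likelihood test, 158 with DESeq2, 340 at an adjusted p under 0.05, 205 to 577 with each sample left out). Directions that reversed were all of changes near 0: *Ext2* with 25 nM RA was -0.0028 with total counts and -0.0213 to 0.0351 with each sample left out, *B3gnt2* and *Chpf* with 1 µM RA were 0.31 and 0.086 for their main transcripts, and with each sample left out *Chpf* and *Ext1* ran from -0.0338 to 0.025 and from -0.0711 to 0.0233. The cause was not tested. Replicate numbers did not pair the samples (correlations of same-numbered deviations -0.0615 to 0.0484), and the replicate block gave 1138, 2756 and 423 genes called in the 3 comparisons. The depth limits *Chsy3* and *Xylt1* most, with at most 163 counts in a sample.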
